A study of Homo sapiens with 30 samples.

Results

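The response of TC32, an Ewing sarcoma cell line, to 3 days of BET bromodomain inhibition was described across all genes that could be tested. The 6 libraries labelled as TC32 at 3 days were used, of 30 libraries in the series: 3 from cells given 5 nM BMS-986158, a BET inhibitor, and 3 from cells given the solvent DMSO (vehicle). Of the 33538 genes in the count table, 16713 had enough counts to be tested, and 14079 of these were taken as expressed in TC32 (at least 10 counts in at least 3 of the 6 libraries). A further 310 tested genes had 0 counts in every TC32 library, because the filter was set over all groups.

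TC32, CHLA10 and A673 are each 1 Ewing sarcoma line, and every library, vehicle included, is labelled with the EWS::FLI1 genotype. For the 3-day groups, cells were plated and kept for 72 h with 5 nM BMS-986158 or with DMSO. TC32 and A673 were grown in RPMI medium with 10% fetal bovine serum, and CHLA10 in IMDM with 20% serum and an insulin, transferrin and selenium supplement, so line and medium cannot be told apart for CHLA10. CHLA10 and A673 are used here only for comparison. The title of the series names focal adhesion kinase, and the TC32 comparison asks which genes differ between inhibitor and vehicle at 3 days.

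BET proteins, among them BRD2 and BRD3, bind acetylated histones through paired bromodomains and help bring P-TEFb, the kinase CDK9 with cyclin T, to paused RNA polymerase II. HEXIM1 holds P-TEFb in an inactive complex, and its transcript is a widely used marker of BET inhibitor exposure. In Ewing sarcoma the fusion protein joins part of EWSR1 to the ETS DNA-binding domain of FLI1, and it activates genes from GGAA repeats and enhancers that also carry acetylated histones.

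The TC32 libraries held 16083677 to 21252129 counts with vehicle and 19520521 to 21812009 counts with the inhibitor. The label was checked against markers. All 8 Ewing sarcoma markers reached 1 CPM (counts scaled to the size of the library) in at least 1 of the 6 libraries. Their summed level was 4065 to 4420 CPM with vehicle and 2868 to 3235 CPM with the inhibitor. Of 10 markers each, 8 blood, 9 epithelial, 8 muscle, 6 endothelial and 2 fibroblast markers stayed under 1 CPM in all 6 libraries. The summed level of the endothelial markers was 61.64 to 81.37 CPM with vehicle and 36.37 to 45.71 CPM with the inhibitor, and the fibroblast markers are given with the matrix genes. Mitochondrial transcripts took 2.99 to 3.635% of counts with vehicle and 3.823 to 4.738% with the inhibitor. Treated replicate 1 stood apart from the other treated libraries, with a chi-square per gene of 34.57 and 31.67 against them, compared with 3.395 between treated replicates 2 and 3 and 6.014 to 13.71 among vehicle libraries.

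The balance between genes of long and short exon length moved with treatment in these libraries. Exon length is here the summed length of all annotated exons of a gene, with overlaps counted once. Each gene's deviation from its mean over the 6 TC32 libraries was taken. The median over genes of long exon length (at least 7.76 kb) minus that over genes of short exon length (at most 3.51 kb) was computed. On the log2 scale it was -0.41, -0.18 and -0.39 in vehicle replicates 1 to 3. It was 0.03, 0.47 and 0.46 in treated replicates 1 to 3, so the groups did not overlap. The same contrast for transcripts rich in G and C against those poor in them was 0.28, 0.15 and 0.23 with vehicle and -0.05, -0.33 and -0.3 with the inhibitor. Its part in the results was not tested beyond 2 alternatives chosen after seeing the data: each gene was fitted again with an offset for exon length, and with an offset for exon length and GC content. Such offsets also remove any effect of the inhibitor that follows length or GC. Of the 7545 genes called, 5689 (75.4%) were called in the same direction with the length offset and 4 in the opposite direction, and with the length and GC offset 5368 (71.1%) and 19. Offset values are given below mainly for counts that moved by over 1.5 times and for calls that ended or turned; smaller shifts are not listed, so their absence does not mean that a value stayed the same.

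**Figure D1:**
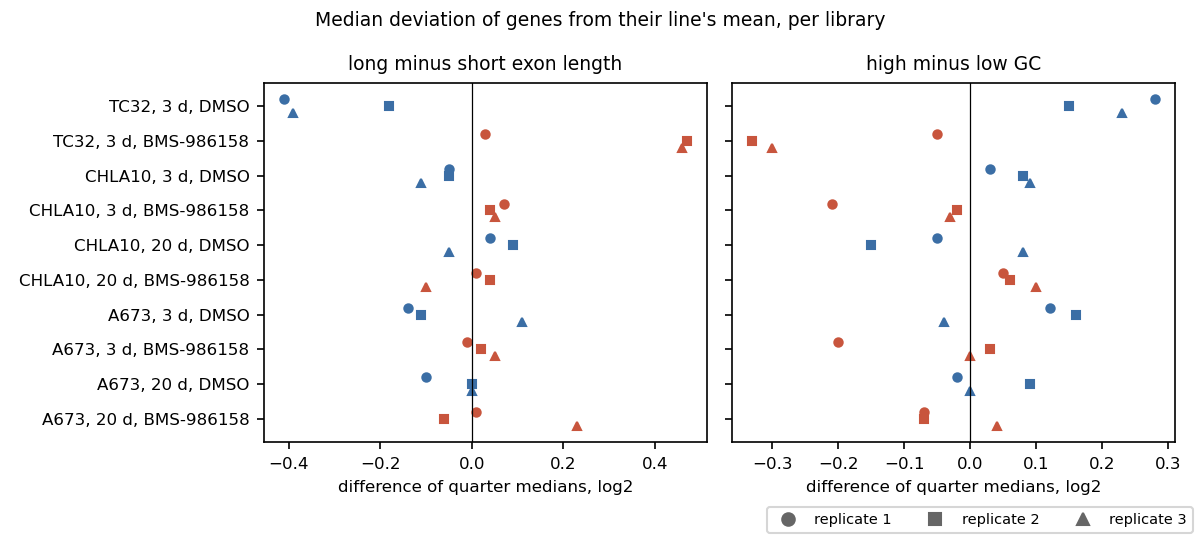
Each point is 1 library. The x axes give the difference in median log2 deviation between genes of long and short exon length (left) and between GC-rich and GC-poor transcripts (right). Shapes stand for replicates and colours for DMSO (blue) and BMS-986158 (red). In TC32 the vehicle libraries lie at -0.41 to -0.18 on the left and the treated libraries at 0.03 to 0.47.

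At an adjusted p under 0.05 (edgeR quasi-likelihood test, Benjamini-Hochberg), 7545 of 16713 genes (45.1%) were called in TC32. Of all genes tested, 3728 (22.3%) rose and 3817 (22.8%) fell, and the median log2 change was -0.01. The counts of list members called below are to be read against these shares. Large changes were more often falls: 1848 genes (11.1%) fell and 833 (4.98%) rose by at least 2-fold. Of the expressed genes, 3606 (25.6%) rose and 3481 (24.7%) fell. The CPM ranges of the 2 groups did not overlap for 9201 genes (55.1%), treated libraries being lower for 4685 (28%) and higher for 4516 (27%).

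The direction of the response differed with abundance. Expressed genes were put in 4 equal bins by mean level. In the least abundant bin 27.4% fell and 10.4% rose, and 24.8% fell by at least 2-fold. In the most abundant bin 24.6% fell and 32.6% rose, and 2.61% fell by at least 2-fold. The genes that rose summed to 21.82 to 23.64% of the TMM-scaled library size with vehicle and 31.12 to 34.97% with the inhibitor. The genes that fell went from 30.25 to 32.66% down to 19.16 to 22.3% of that size. The TMM factors of the TC32 libraries were 0.9282 to 0.961, so the shares of raw counts were lower than these values.

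The genes with the largest falls included secreted, matrix, contractile and neural genes. They were taken among called protein-coding genes with a mean log2 CPM of at least 2 and CPM ranges that did not overlap. Separate groups are therefore a condition of this choice, here and for the largest rises and the largest changes in CPM. CXCL14 (chr5:135570679-135579279, minus strand, GRCh38), a chemokine, had 94.2, 90.58 and 105.1 CPM with vehicle and 0.7411, 0.54 and 0.1066 CPM with the inhibitor. CRYAB, a small heat shock protein, had 139.2, 170 and 153.3 CPM and then 6.324, 3.24 and 5.012 CPM. NEUROD6, a neurogenic basic helix-loop-helix factor, had 112.3, 110.1 and 108.7 CPM and then 4.002, 3.486 and 2.986 CPM. By this choice every treated library was below every vehicle library for these 3 genes. Their log2 changes were -7.67 ± 0.59 (approximate SE, adjusted p = 1.56e-09), -4.99 ± 0.89 (0.00011) and -4.98 ± 0.37 (2.62e-10).

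TNFAIP6 (chr2:151357592-151380048, plus strand), a secreted hyaluronan-binding protein, had 54.52, 56.59 and 64.05 CPM with vehicle and 2.767, 4.418 and 3.093 CPM with the inhibitor, a log2 change of -4.09 ± 0.23 (adjusted p = 9.53e-13). COL3A1, the chain of type III collagen, had 87.67, 91.12 and 80.76 CPM and then 3.211, 5.4 and 6.772 CPM (-4.08 ± 0.38). PENK, the precursor of enkephalin peptides, had 119.3, 107.3 and 115 CPM and then 8.646, 7.364 and 6.665 CPM (-3.91 ± 0.24). FABP3, a fatty acid carrier, had 78.24, 71.24 and 79.96 CPM and then 7.559, 3.191 and 4.692 CPM (-3.89 ± 0.36). The other members of the 10 were PCDH8, a protocadherin (-3.97), KIAA0040 (-3.94) and MYL9, a myosin light chain (-3.78).

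Among the largest rises were a redox protein, a kinase and an adhesion molecule, all from low vehicle levels. NXN, nucleoredoxin, had 3.348, 2.269 and 1.997 CPM with vehicle and then 18.28, 15.32 and 17.54 CPM (2.74 ± 0.22). TESK2, a kinase that phosphorylates cofilin, had 5.637, 2.96 and 2.996 CPM and then 22.43, 27.59 and 27.3 CPM (2.73 ± 0.26). As for the falls, only genes with separate groups were taken. Others were IZUMO4 (2.65), FAM222A (2.39), BAIAP3 (2.39), IQCN (2.36), ATP8A1, a phospholipid flippase (2.35), CADM2, a synaptic adhesion molecule (2.35) and KIAA0513 (2.31).

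**Figure D2:**
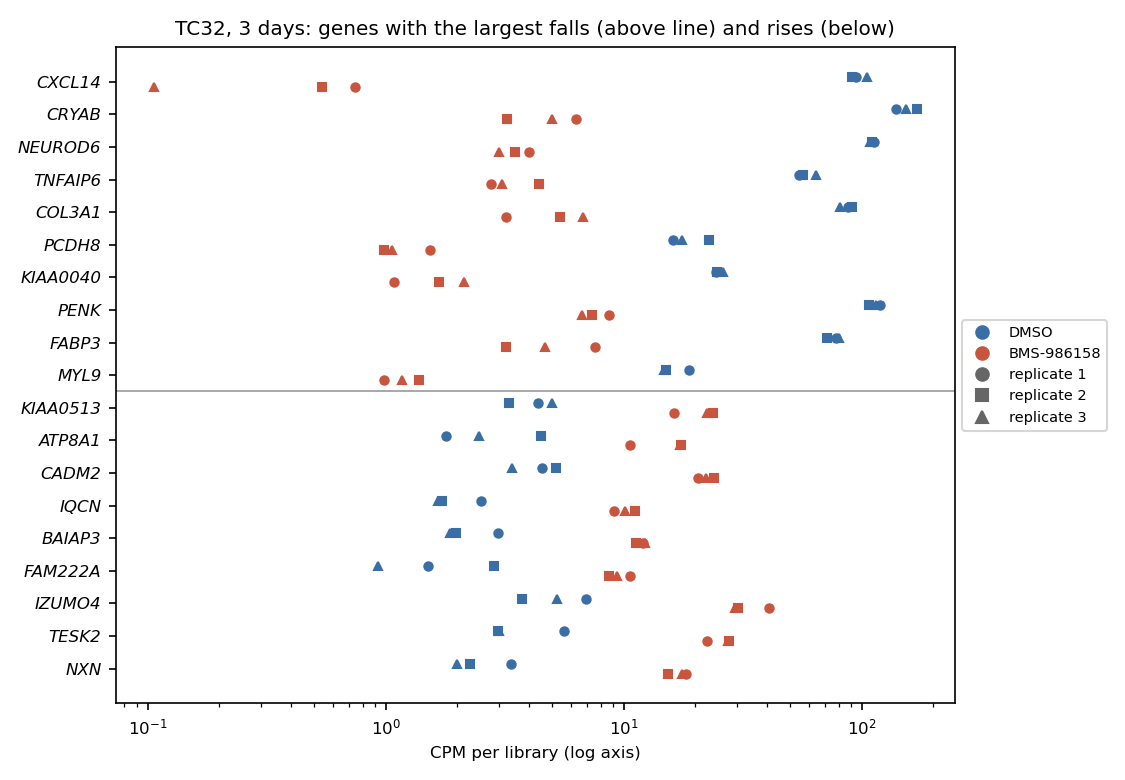
CPM in each TC32 library on a log axis for genes with the largest falls (upper rows) and the largest rises (lower rows), with blue for DMSO, red for BMS-986158 and shapes for replicates. CXCL14 drops from 90.58 to 105.1 CPM to under 1 CPM, and NXN goes from 1.997 to 3.348 CPM up to 15.32 to 18.28 CPM.

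In CPM, the 5 largest losses among called protein-coding genes of the same choice were of ACTB, CAV1, CD99, CSRP1 and RPS19, the last a ribosomal protein gene. The 5 largest gains were of EEF1A1, EEF2, PABPC1, TBC1D4 and MT-ND5. CD99, RPS19 and MT-ND5 are given below with their lists. ACTB, beta-actin, went from 5394, 5558 and 5849 CPM to 3750, 3641 and 3681 CPM (log2 change -0.60 ± 0.17, adjusted p = 0.00421). CAV1, the caveola coat protein, went from 3219, 3294 and 3311 CPM to 1610, 1741 and 1729 CPM (-0.95 ± 0.24). CSRP1, a LIM protein of the actin cytoskeleton, went from 1418, 1516 and 1492 CPM to 448.5, 437.6 and 499.6 CPM (-1.68 ± 0.34). By that choice the groups were separate, the treated libraries being lower. EEF2, which moves the ribosome along the message, went from 4626, 4849 and 4574 CPM to 7640, 7968 and 7493 CPM (0.72 ± 0.09). PABPC1, the poly(A)-binding protein, went from 2206, 2249 and 2312 CPM to 3801, 4046 and 3830 CPM (0.79 ± 0.10). TBC1D4, a regulator of glucose transporter traffic, went from 766.2, 846.8 and 721.2 CPM to 1812, 2491 and 2440 CPM (1.53 ± 0.21). By the same choice these 3 were higher in every treated library. EEF1A1, which delivers aminoacyl-tRNA, also passed the test (0.26 ± 0.10, adjusted p = 0.0349), but 11 of its 17 alternative fits did not call it, among them those without treated replicates 1 or 2 or without vehicle replicates 1 or 2 (adjusted p 0.0658 to 0.09).

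Of 14 BET proteins and P-TEFb regulators tested, the targets of the drug and their partners, 8 rose and none fell, with a median log2 change of 0.50, compared with 22.3% of all genes and a median of -0.01. HEXIM1 (chr17:45148502-45152101, plus strand) had 76.74, 77.45 and 73.84 CPM with vehicle and 152.3, 148.6 and 148.1 CPM with the inhibitor, a log2 change of 0.98 ± 0.12 (adjusted p = 1.56e-07). AFF4, the scaffold of the super elongation complex, had 71.55, 85.05 and 78.96 CPM and then 121.5, 180.3 and 170.4 CPM (1.00 ± 0.15). The cyclin T genes that activate CDK9 rose as well, CCNT2 by 0.80 ± 0.11 and CCNT1 by 0.65 ± 0.10, while CDK9 was at 0.13 (adjusted p = 0.212). BRD2 rose by 0.54 ± 0.09 and BRD3 by 0.56 ± 0.09. With the length offset 8 of the 14 rose, with a median of 0.35.

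Of 7 genes used as blood markers of BET inhibitor exposure, 4 had too few counts to be tested and the other 3 rose: HEXIM1, ZCCHC24 (15.91, 22.5 and 18.18 CPM, then 41.21, 46.79 and 45.64 CPM) and SERPINI1, a neuronal serine protease inhibitor (2.232, 3.503 and 3.196 CPM, then 10.62, 11.78 and 9.225 CPM). The treated libraries were higher throughout. Of 16 histone genes with polyadenylated transcripts, 8 rose and 2 fell (median 0.26). H2AC6, H2BC5 and H2BC21 rose by 1.35, 1.53 and 1.62, and reads of such near-identical histone copies may be split between genes. MACROH2A2, a variant histone of silent chromatin, had 104.4, 104.6 and 106.9 CPM and then 23.07, 21.9 and 25.75 CPM (-2.16 ± 0.16, adjusted p = 1.68e-10).

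MYC, the growth-promoting transcription factor, rose in TC32. MYC had 327.1, 381.4 and 392.2 CPM with vehicle and 581.1, 655.4 and 637.9 CPM with the inhibitor, and the groups were separate. Its log2 change was 0.77 ± 0.10 (adjusted p = 6.56e-07), and it stayed between 0.69 and 1.05 over 18 alternatives. Of the 13 genes of the MYC, MAX and MXD network, 6 rose (46.2%) and 4 fell (30.8%), against 22.3% and 22.8% of all genes. The median was 0.30, and 3 rose with the length offset. Those that rose included MXD1, a partner of MAX that opposes MYC (1.26 ± 0.23), and those that fell included MLXIPL, the glucose-responsive factor ChREBP (-3.08 ± 0.70). Of 30 ribosome biogenesis genes, a class that MYC activates in many cells, 10 fell (33.3%) and none rose (median -0.20). There were 3 rises without treated replicate 1 and 1 with the length offset. FBL, the methyltransferase of box C/D particles, fell by 0.80 ± 0.12, from 553.4, 441 and 526.6 CPM to 352.3, 258.9 and 261.9 CPM, and PES1, a factor of large subunit assembly, fell by 0.57 ± 0.13.

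Neither gene of the fusion passed the test. EWSR1 had 332.7, 310.8 and 332.7 CPM with vehicle and 331.7, 318.9 and 325.6 CPM with the inhibitor (log2 change 0.00 ± 0.11, adjusted p = 1). FLI1 had 63.79, 53.33 and 58.92 CPM and then 68.43, 64.36 and 65.8 CPM (0.17 ± 0.09, adjusted p = 0.125). With the length offset FLI1 was at -0.09 (adjusted p = 0.491). Gene counts do not separate fusion from normal transcripts, and the length offset moved EWSR1 to -0.34 (adjusted p = 0.0399, with values of -0.41 to 0.04 over 18 alternatives). Among 18 genes of EWSR1, FLI1 and other ETS factors 4 rose (22.2%) and 6 fell (33.3%), against 22.3% and 22.8% of all genes. ETS2 fell from 52.01, 64.18 and 59.39 CPM to 19.76, 22.98 and 23.89 CPM (-1.40 ± 0.16, adjusted p = 1.02e-07).

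Of 33 targets that EWS::FLI1 activates, 18 fell and 4 rose, with a median of -0.47. FCGRT, the neonatal Fc receptor, had 703.7, 644.1 and 729.9 CPM and then 208.1, 172.7 and 174.9 CPM (-1.90 ± 0.28, adjusted p = 8.63e-06). PPP1R1A, a protein phosphatase 1 inhibitor, had 38.9, 36.21 and 41.41 CPM and then 7.856, 7.904 and 7.572 CPM (-2.32 ± 0.33). LOXHD1, a stereocilia protein, fell by 2.18 ± 0.36. The groups were separate for these genes. Others that are often listed as core targets did not pass the test. NKX2-2, a homeobox factor, had 72.77, 84.71 and 95.47 CPM with vehicle and 85.18, 97.4 and 94.22 CPM with the inhibitor (0.13 ± 0.25, adjusted p = 0.708). NR0B1, the nuclear receptor DAX1, was at -0.14 (adjusted p = 0.752). CCND1, cyclin D1, had 2597, 2864 and 2620 CPM and then 2209, 2586 and 2573 CPM, the highest treated library being just under the lowest vehicle library (-0.13 ± 0.14, adjusted p = 0.46). DLX2, a homeobox factor, rose from 23.44, 26.74 and 26.96 CPM to 87.6, 76.14 and 92.51 CPM (1.73 ± 0.37).

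Of 21 genes that the fusion represses, 3 rose (14.3%, against 22.3% of all genes) and 5 fell (23.8%, against 22.8%), with a median of -0.86. TNC, the matrix protein tenascin C, had 363.5, 386.8 and 386.1 CPM and then 19.91, 31.37 and 39.41 CPM (-3.65 ± 0.42, adjusted p = 5.11e-07). IGFBP5 and IGFBP3, which bind insulin-like growth factors, fell by 2.41 ± 0.43 and 2.11 ± 0.38. NR2F2, an orphan nuclear receptor of mesenchymal cells, rose by 1.14 ± 0.16 (adjusted p = 2.89e-06), from 57.43, 64.28 and 63.38 CPM to 126.9, 140.2 and 139.9 CPM. Of 24 surface antigens of Ewing sarcoma 11 fell and 1 rose (median -0.71), and 7 fell without treated replicate 1. CD99, the diagnostic surface marker of the disease, had 3153, 2753 and 3127 CPM with vehicle and 2110, 1721 and 1682 CPM with the inhibitor, a log2 change of -0.71 ± 0.12 (adjusted p = 2.09e-05). CD276, the immune checkpoint ligand B7-H3, had 51.85, 54.51 and 54.06 CPM and then 20.7, 17.87 and 21.28 CPM (-1.42 ± 0.20). KIT, a receptor tyrosine kinase, had 164.6, 185.1 and 169.6 CPM and then 63.74, 85.67 and 82.97 CPM (-1.16 ± 0.12). All 3 were lower in every treated library.

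DNA replication genes fell together: 32 of 40 fell and 1 rose, against 22.8% and 22.3% of all genes, and the median log2 change was -0.70. Leaving out any 1 TC32 library left 30 to 32 falls, and the length offset left 31 with a median of -0.57. The promoters of some of them carry the letters TTTNGCGC, in which E2F factors can bind; this motif was added after seeing the data, searched on both strands in 250 bases before and 50 after the RefSeq start (GRCh38.p14). It was present in 13 of 35 replication promoters: 10 of 29 that fell, 2 of 5 not called and the 1 that rose. It was found in 3.04% of expressed promoters (3.47% of genes that fell and 3.4% of those that rose) and in 1.83% of all. For expressed genes that changed by at least 2-fold, it was in 1.73% of those that fell and 2.44% of those that rose. Windows of 60 bases upstream of the start are shown for 3 genes that fell, 5′ to 3′ on the strand of the gene, with each match in capitals; a match is a description of the letters only.
POLE2, chr14:49688256-49688315, minus strand: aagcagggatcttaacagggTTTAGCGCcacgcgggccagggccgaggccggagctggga
MCM6, chr2:135876556-135876615, minus strand: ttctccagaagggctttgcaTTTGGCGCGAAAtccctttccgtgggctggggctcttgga
MCM7, chr7:100101398-100101457, minus strand: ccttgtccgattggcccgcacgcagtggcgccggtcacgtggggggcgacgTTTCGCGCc

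POLE2, a subunit of the leading strand polymerase, had 20.09, 15.34 and 16.71 CPM with vehicle and 6.966, 5.4 and 6.452 CPM with the inhibitor (-1.47 ± 0.17, adjusted p = 1.26e-07). GINS2, of the replicative helicase complex, had 60.11, 51.11 and 59.92 CPM and then 25.74, 19.54 and 20.74 CPM (-1.37 ± 0.11). MCM5, a subunit of the helicase ring, had 258.4, 257.6 and 262.5 CPM and then 127.1, 102.4 and 101.3 CPM (-1.23 ± 0.10, adjusted p = 2.62e-10). The groups were separate for each. The other members of the ring fell as well, MCM2 by 0.74, MCM3 by 0.63, MCM4 by 0.48, MCM6 by 0.55 and MCM7 by 0.81, and so did MCM10, which helps to start synthesis, by 0.64. PCNA, the sliding clamp, had 343.4, 319.6 and 348.9 CPM and then 221.4, 185.9 and 183.6 CPM (-0.78 ± 0.11). POLE, the large subunit of the same polymerase as POLE2, was the only member that rose (0.32, adjusted p = 0.0422), and 5 of the 6 fits without 1 library did not call it. In bulk RNA, fewer cells in S phase and less of these transcripts per cell cannot be told apart.

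Upstream of replication, 9 of 25 genes of the D cyclins, G1 kinases and CDK inhibitors fell (36%) and 4 rose (16%). Of all genes 22.8% fell and 22.3% rose. CDK6, a partner of D cyclins, had 15.01, 14.16 and 13.45 CPM with vehicle and 1.482, 1.718 and 2.933 CPM with the inhibitor (-2.80 ± 0.25, adjusted p = 2.25e-09). E2F1, which drives S phase genes, fell from 111.7, 110.8 and 107.8 CPM to 65.86, 50.32 and 54.87 CPM (-0.95 ± 0.13), and E2F2 by 1.38 ± 0.19. CDC25A, a phosphatase that activates CDK2, fell by 1.24 ± 0.22. The CDK inhibitor genes CDKN2D and CDKN1B rose by 1.09 and 0.50, CDKN1C fell by 1.98 ± 0.41, and CDKN1A, the p21 gene, had 123.7, 130 and 135.8 CPM and then 67.59, 70.01 and 76.3 CPM (-0.86 ± 0.41, adjusted p = 0.0936).

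Of 40 mitosis genes 22 fell and 3 rose (median -0.29). AURKA, a spindle kinase, had 79.19, 73.65 and 83.76 CPM and then 29.84, 39.32 and 38.02 CPM (-1.14 ± 0.12, adjusted p = 2.51e-08). BIRC5, survivin, had 219.3, 198.6 and 210.2 CPM and then 104.1, 96.42 and 96.67 CPM (-1.08 ± 0.10). The 3 that rose were CENPE, KIF14 and ASPM, genes of the kinetochore and spindle, and none of the 40 rose with the length offset. Without treated replicate 1 the number was 5, without treated replicate 2 it was 0, and without treated replicate 3, vehicle replicate 1 or vehicle replicate 3 it was 1. Of 36 homologous recombination and Fanconi genes 12 fell (33.3%, against 22.8% of all genes) and 8 rose (22.2%, near the 22.3% of all genes). Without treated replicate 2 or without vehicle replicate 3, 5 rose. RMI2, of the complex that dissolves recombination intermediates, fell by 1.01 ± 0.13, and NBN, of the MRN break sensor, rose by 1.03 ± 0.11, from 57.71, 68.43 and 61.12 CPM to 106.9, 137.4 and 137.4 CPM.

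Among 27 p53 target genes 12 fell (44.4%, against 22.8% of all genes) and 4 rose (14.8%, against 22.3%), with a median of -0.59. Without treated replicate 3 the rises numbered 2. BAX, the pore-forming death effector, had 183.3, 161.2 and 202.7 CPM with vehicle and 100.8, 74.62 and 76.25 CPM with the inhibitor (-1.12 ± 0.11, adjusted p = 5.34e-09). PHLDA3, an AKT inhibitor, had 221.4, 199.4 and 228.9 CPM and then 95.21, 68.83 and 64.41 CPM (-1.51 ± 0.22). MDM2 was at -0.26 (adjusted p = 0.101). Of 30 genes of the BCL2 family and death receptors 12 fell (40%) and 6 rose (20%, near the 22.3% of all genes). TNFRSF10A, the death receptor DR4, had 3.125, 2.96 and 2.996 CPM and then 0.1976, 0.3437 and 0.3199 CPM (-3.38 ± 0.46). The killers BID and BAD fell by 1.75 and 1.24, and the protector BCL2L1 fell by 0.67. MCL1, a protector, rose from 192.6, 215.4 and 212.7 CPM to 332.3, 378.7 and 366.9 CPM (0.80 ± 0.18), and BCL2L11, the killer BIM, rose by 0.97 ± 0.15.

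Of 35 collagen chains 15 fell and none rose, and the median log2 change was -1.12; with the length offset 21 fell. COL3A1 is given above. COL6A1 and COL6A2, chains of the same microfibrillar collagen, had 147.4, 154.6 and 139.8 CPM and 267.2, 254.5 and 251.6 CPM with vehicle. With the inhibitor COL6A1 and COL6A2 had 28.61, 31.86 and 39.03 CPM and 116.3, 103.1 and 108.4 CPM, log2 changes of -2.15 ± 0.24 and -1.24 ± 0.21. COL26A1 had 0 counts in all 3 treated libraries. Of 24 elastic fibre and lysyl oxidase genes 15 fell and none rose (median -1.25). EMILIN1, an elastin interface protein, had 257.4, 235.3 and 247.7 CPM and then 28.56, 29.46 and 30.77 CPM (-3.06 ± 0.20, adjusted p = 2.66e-11). ELN, elastin, had 23.94, 24.37 and 22.64 CPM and then 2.964, 4.124 and 3.573 CPM (-2.73 ± 0.49). LTBP1, which holds latent TGF-beta in the matrix, had 70.09, 78.14 and 68.78 CPM and then 12.2, 16.94 and 17.97 CPM (-2.20 ± 0.18). All of these were lower in every treated library.

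Contractile genes fell in the same libraries: 12 of 19 smooth muscle contractile genes fell and 1 rose (0 with the length offset), with a median of -1.83. ACTA2, smooth muscle actin, had 136.5, 148.9 and 139.6 CPM and then 11.46, 13.75 and 13.76 CPM (-3.45 ± 0.41, adjusted p = 7.89e-07). MYLK, the kinase of myosin light chain, fell by 3.23 ± 0.28 and CNN1, calponin, by 4.02 ± 0.75. The summed level of 10 fibroblast markers went from 703.8 to 780.8 CPM down to 372.5 to 413.6 CPM, 8 of them fell, and DCN and PDGFRA were under 1 CPM in every library. That of 10 muscle markers went from 81.78 to 93.73 CPM down to 9.682 to 18.11 CPM, nearly all of it TNNT1, with MYOD1, MYOG and MYF5 under 1 CPM. Their part in the matrix and contractile results was not tested.

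PTK2, the gene of focal adhesion kinase (chr8:140657900-141002216, minus strand), had 144.8, 176.4 and 155.1 CPM with vehicle and 176.7, 200.3 and 200.7 CPM with the inhibitor. The groups did not overlap, but the highest vehicle library was just under the lowest treated library. The log2 change was 0.28 ± 0.09 (adjusted p = 0.0111). Without vehicle replicate 1 the call was lost (adjusted p = 0.079), and with the length offset the direction turned (-0.13, adjusted p = 0.283), with values of -0.17 to 0.36 over 18 alternatives. Of the 28 genes of focal adhesion kinase, SRC and the adhesion linkers, 7 rose (25%) and 9 fell (32.1%), against 22.3% and 22.8% of all genes. TNS3, a tensin that links integrins to actin, had 11.66, 13.67 and 11.72 CPM and then 0.247, 1.129 and 1.066 CPM (-3.92 ± 0.44, adjusted p = 8.06e-08). PARVB, beta-parvin of the integrin-linked kinase complex, had 28.02, 26.69 and 28.1 CPM and then 2.47, 3.878 and 4.159 CPM (-2.98 ± 0.34). TLN2, a talin that activates integrins, rose by 1.32 ± 0.16 and SRC fell by 0.57 ± 0.12. Of 19 integrin subunits 8 fell and 2 rose (median -0.66), ITGB2, the beta subunit of leukocyte integrins, by -1.84 ± 0.27, with 1 rise left with the length offset or without treated replicate 2, vehicle replicate 1 or vehicle replicate 2. Among 11 laminin chains LAMB3 fell from 48.16, 40.5 and 43.68 CPM to 3.063, 3.682 and 4.106 CPM (-3.61 ± 0.28), while LAMC1 and LAMB2 rose by 0.83 and 0.43, the latter not with the length offset (adjusted p = 0.072). Of 38 matrix proteases and inhibitors 6 rose (15.8%; 3 with the length and GC offset) and 7 fell (18.4%).

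In insulin-like growth factor signalling, the ligand IGF1 and 5 binding proteins fell and 3 receptors rose. IGF1, the ligand, fell from 30.3, 30.78 and 28.3 CPM to 2.322, 2.553 and 2.559 CPM. IGFBP7 had 16.02, 12.93 and 12.18 CPM and then 0.3953, 0.2455 and 0.05332 CPM (-5.83 ± 0.74, adjusted p = 7.69e-07), and IGFBP6 fell by 4.09 ± 0.53. PAPPA2, a protease that frees the ligand from its binding proteins, fell by 4.42 ± 0.64. IGF1R, the receptor, had 53.74, 62.16 and 67.51 CPM and then 111, 156.7 and 146.3 CPM (1.17 ± 0.24, adjusted p = 0.000304), and INSR, the insulin receptor, and IGF2R rose by 0.48 and 0.95. Of the 20 genes of this list 9 fell (45%) and 7 rose (35%), against 22.8% and 22.3% of all genes. With the length offset 3 rose, and 3 without any 1 of treated replicates 2 or 3 or vehicle replicates 1 or 3.

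Of 32 immediate early and AP-1 genes 11 rose (34.4%) and 4 fell (12.5%), against 22.3% and 22.8% of all genes. The median was 0.42, and 13 rose and 4 fell with the length offset. EGR1, a zinc finger factor that responds to growth signals, had 31.36, 41.93 and 39.02 CPM with vehicle and 159.2, 199.8 and 168.8 CPM with the inhibitor (2.23 ± 0.60, adjusted p = 0.00471). EGR3 had 0.6139, 1.776 and 1.465 CPM and then 4.941, 6.284 and 4.692 CPM (2.04 ± 0.41). KLF6 rose from 134.9, 164.4 and 146.3 CPM to 260.4, 354.9 and 347.5 CPM (1.11 ± 0.14). FOS had 9.543, 10.71 and 8.456 CPM and then 20.6, 19.54 and 19.84 CPM without passing the test (1.06 ± 0.47, adjusted p = 0.0725). DUSP4, a phosphatase that acts on ERK, fell by 2.76 ± 0.32. Of 35 genes of TGF-beta signalling 12 rose (34.3%, against 22.3% of all genes) and 8 fell (22.9%, near the 22.8% of all genes). TGFB2 and TGFB3, the ligands, fell by 2.65 ± 0.63 and 2.24 ± 0.19, and TGFBI, an induced matrix protein, had a log2 change of -3.77 ± 0.62.

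In the Notch pathway 8 of 28 genes rose (28.6%) and 5 fell (17.9%), against 22.3% and 22.8% of all genes. Without treated replicate 3 the rises numbered 5, and with the length and GC offset the falls numbered 2. JAG2, a ligand, had 14.34, 16.87 and 14.58 CPM and then 42.98, 48.8 and 46.18 CPM (1.59 ± 0.24, adjusted p = 6.96e-06), and NOTCH2, a receptor, had 43.31, 51.41 and 44.81 CPM and then 71.64, 110.5 and 104.7 CPM (1.04 ± 0.20). HEYL, a target of the pathway, fell by 1.73 ± 0.49. Of 39 WNT pathway genes 10 fell (25.6%) and 6 rose (15.4%). There were 3 rises with the length offset or without vehicle replicate 1. Falls numbered 5 with the length and GC offset, and 6 without treated replicate 3 or vehicle replicate 3. RSPO3, a secreted enhancer of WNT signalling, had 51.12, 52.34 and 51.6 CPM and then 10.92, 12.67 and 11.84 CPM (-2.13 ± 0.33). Of 26 YAP, TAZ and TEAD targets 9 rose (34.6%) and 7 fell (26.9%), AXL, a receptor tyrosine kinase, by -3.14 ± 0.62 and TEAD4 by -1.21 ± 0.16. CCN1 and CCN2, classical targets, had log2 values of 1.12 and 0.86 that did not pass the test (adjusted p = 0.103 and 0.317). Of 42 receptor tyrosine kinases 12 rose (28.6%) and 10 fell (23.8%), and 6 fell without vehicle replicate 1. ALK fell from 10.16, 13.17 and 9.254 CPM to 2.421, 2.749 and 2.826 CPM (-2.03 ± 0.40).

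Antigen presentation genes were lower in treated TC32 cells: 17 of 21 MHC class I and peptide loading genes fell and none rose, with a median of -1.06 (14 to 17 falls without any 1 library, 14 with the length offset). Interferon-stimulated genes did likewise, 28 of 47 falling and 2 rising, with a median of -1.73, or -1.56 with the 2 members that had 0 counts in 1 group set at a bound of 3 counts (22 to 24 falls without any 1 library). Both groups can be driven by interferon-stimulated response elements, whose core was searched as GAAA, any 2 bases and GAAA on both strands of the 300-base RefSeq promoters. It was found in 9 of 17 antigen presentation promoters (7 of 14 that fell and 2 of 3 not called) and in 23 of 37 promoters of the interferon list (15 of 22 that fell and 8 of 15 not called). It was found in 2.74% of expressed promoters and 3.65% of all, in none of 35 replication promoters, in 4.65% of expressed genes that fell by at least 2-fold (51 of 1097) and in 1.13% of those that rose by at least 2-fold (6 of 533). Windows upstream of the start are shown for 7 members to show where the letters lie, 5′ to 3′ on the strand of the gene (GRCh38.p14, RefSeq), with each match, on either strand, in capitals.
B2M, chr15:44711353-44711412, plus strand: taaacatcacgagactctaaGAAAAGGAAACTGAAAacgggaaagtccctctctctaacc
TAP1, chr6:32853799-32853858, minus strand: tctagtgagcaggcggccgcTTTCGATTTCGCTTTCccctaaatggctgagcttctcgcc
BST2, chr19:17405721-17405780, minus strand: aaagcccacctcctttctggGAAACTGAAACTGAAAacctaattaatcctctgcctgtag
ISG15, chr1:1013364-1013423, plus strand: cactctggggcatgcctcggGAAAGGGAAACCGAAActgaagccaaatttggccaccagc
IFITM3, chr11:320873-320932, minus strand: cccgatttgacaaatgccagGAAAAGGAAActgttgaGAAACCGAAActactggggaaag
IFIT1, chr10:89392487-89392546, plus strand: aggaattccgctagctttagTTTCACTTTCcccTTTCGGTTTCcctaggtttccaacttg
GBP1, chr1:89065296-89065355, minus strand: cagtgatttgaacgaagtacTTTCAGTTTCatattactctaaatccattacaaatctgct

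B2M, the light chain of every class I molecule, had 1091, 940.8 and 1076 CPM with vehicle and 777, 693.8 and 676.2 CPM with the inhibitor (-0.53 ± 0.14, adjusted p = 0.00321). HLA-B, a heavy chain, had 155.9, 159.1 and 155 CPM and then 57.31, 40.21 and 46.44 CPM (-1.71 ± 0.26, adjusted p = 1.1e-05), and HLA-C fell by 1.61; reads of these near-identical genes may be split between them. ERAP2, which trims peptides for loading, had 53.97, 45.49 and 56.86 CPM and then 4.644, 4.026 and 4.372 CPM (-3.58 ± 0.32, adjusted p = 1.56e-09). PSMB8, an immunoproteasome subunit, had 45.43, 33.2 and 42.68 CPM and then 10.82, 9.671 and 7.092 CPM (-2.13 ± 0.33). Every treated library was below every vehicle library for these 4. TAP1, a subunit of the peptide transporter, had 26.79, 25.16 and 28.03 CPM and then 20.06, 20.86 and 16.1 CPM, which did not pass the test (-0.49 ± 0.25, adjusted p = 0.109), although its promoter window holds the letters shown above.

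IFITM3, which blocks virus entry, had 251.7, 228.1 and 264.7 CPM and then 85.03, 66.57 and 70.55 CPM (-1.74 ± 0.24, adjusted p = 3.38e-06). ISG15, a ubiquitin-like modifier, had 84.38, 61.86 and 77.43 CPM and then 36.26, 17.97 and 21.33 CPM (-1.56 ± 0.44). GBP1, a guanylate-binding protein, had 37.56, 39.66 and 34.89 CPM and then 8.547, 8.984 and 10.82 CPM (-1.98 ± 0.27). The groups were separate for all 3. TRIM22, an antiviral ubiquitin ligase, fell by 5.00 ± 0.50, from 14.34, 15.49 and 12.72 CPM to 0.2964, 0.5891 and 0.4266 CPM. IRF7, a regulator of the response, rose. IRF7 had 9.822, 7.203 and 6.858 CPM and then 31.32, 24.4 and 25.01 CPM (1.76 ± 0.29, adjusted p = 2.16e-05); 1 of the 2 rises of the list was left with either offset or without any 1 of treated replicates 2 or 3 or vehicle replicates 1 or 3. Blood cell markers PTPRC, CD3D, CD14 and LYZ were under 1 CPM in all 6 libraries. Of 26 chemokine and cytokine genes 10 fell and 3 rose (1 with the length and GC offset; median -0.99), and CCL2, a monocyte attractant, fell by 3.28 ± 0.37.

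**Figure D3:**
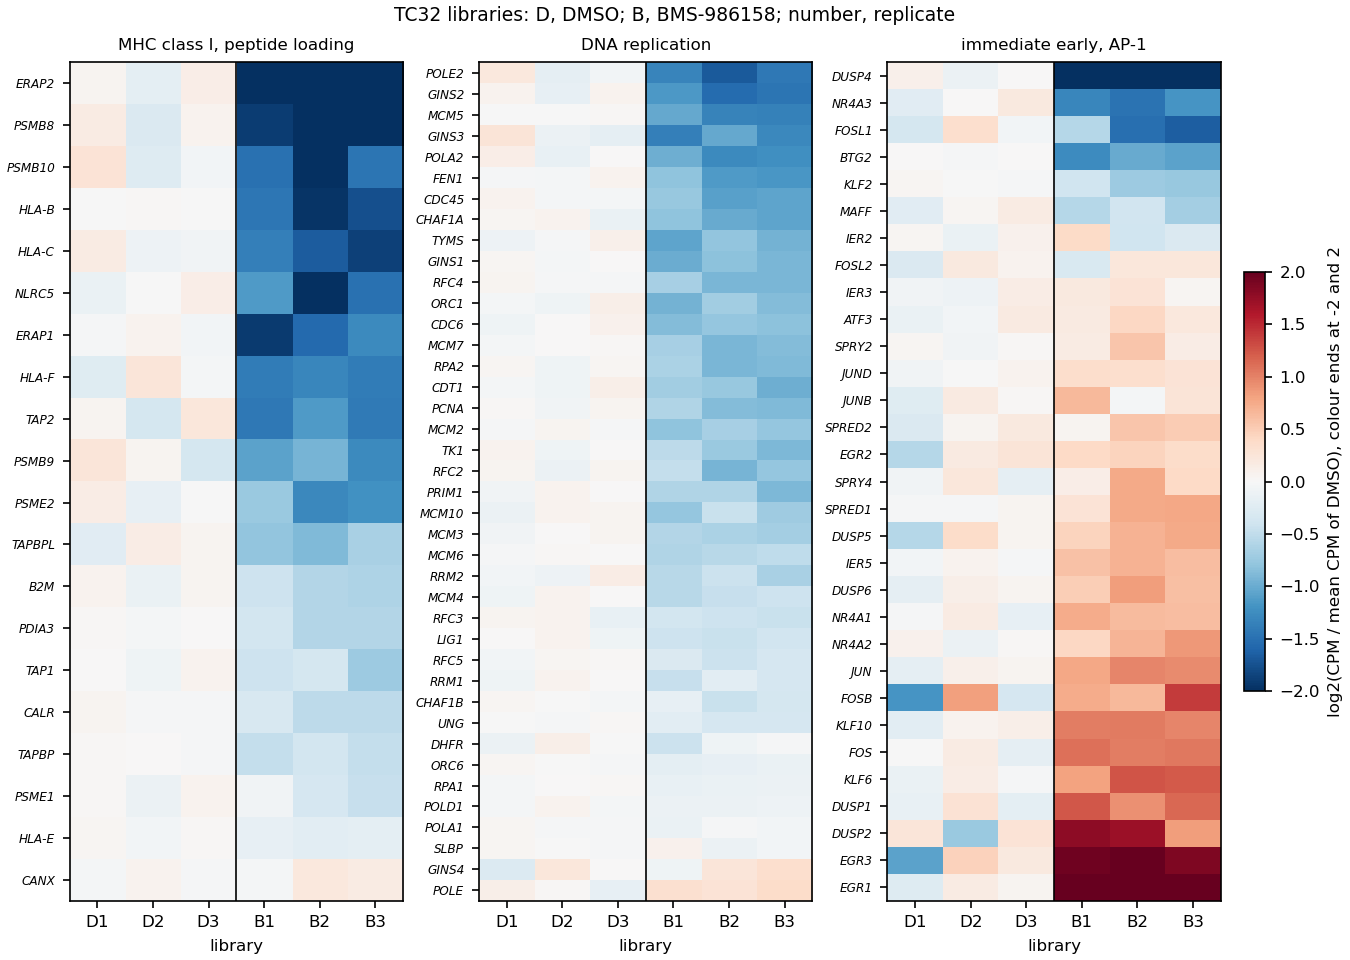
Colour gives log2 of each TC32 library's CPM over the mean of the 3 DMSO libraries, from blue (-2 or lower) to red (2 or higher), for expressed members of 3 lists with no count of 0 (1 antigen presentation gene is not shown); columns are DMSO (D) and BMS-986158 (B) replicates 1 to 3, rows are ordered by log2 change. Most antigen presentation and replication rows are blue in B1 to B3, and EGR1 and EGR3 are among the reddest rows of the immediate early genes.

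Of 37 nuclear genes of oxidative phosphorylation 19 fell and none rose (median -0.30), ATP5PO, of the ATP synthase stalk, by -1.14 ± 0.22; 16 fell and 2 rose with the length offset. Of 13 mitochondrially encoded genes 2 rose (median 0.41), and 10 rose with the length offset (median 0.95); MT-ND5, a complex I subunit, had 1065, 1493 and 1006 CPM and then 2069, 2320 and 2626 CPM (0.98 ± 0.31, adjusted p = 0.0121, and 0.0555 without vehicle replicate 3). Of 40 cytosolic ribosomal protein genes 9 fell (22.5%, near the 22.8% of all genes) and 1 rose (2.5%, against 22.3%), with a median of -0.11. But 4 fell without any 1 of treated replicates 2 or 3 or vehicle replicates 1 or 3, and 17 fell without treated replicate 1. With the length offset 5 fell while 8 rose. RPS19 had 2574, 1973 and 2520 CPM and then 1880, 1294 and 1221 CPM (-0.69 ± 0.13), and treated replicate 1 was the highest of its group.

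Of 35 cholesterol and fatty acid synthesis genes 15 fell and 2 rose. ELOVL6, which lengthens fatty acids, had 36.33, 44.84 and 43.34 CPM with vehicle and 5.682, 6.628 and 9.918 CPM with the inhibitor (-2.49 ± 0.30, adjusted p = 4.25e-07). EBP, a sterol isomerase, had 142.5, 110.2 and 127.9 CPM and then 54.45, 43.15 and 39.51 CPM (-1.47 ± 0.15). With the length offset 1 of the 2 rises was left, and both were lost without treated replicates 2 or 3 or vehicle replicate 1. Of 38 glycolysis and hypoxia genes 10 fell (26.3%) and 5 rose (13.2%), against 22.8% and 22.3% of all genes. There were 6 falls without treated replicate 2 or 3, and 3 rises with the length offset or without vehicle replicate 3. LDHA, lactate dehydrogenase, had 1514, 1481 and 1529 CPM and then 740.9, 646.9 and 651.3 CPM (-1.15 ± 0.16, adjusted p = 1.14e-06). EGLN3, an oxygen-sensing hydroxylase, rose by 2.27 ± 0.29.

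Of 25 endoplasmic reticulum chaperone genes 13 fell (52%, against 22.8% of all genes) and 7 rose (28%, against 22.3%). There were 4 rises without treated replicate 2 or with the length offset. PDIA6, a disulphide isomerase, had 233.9, 237.1 and 208.8 CPM and then 93.53, 110.2 and 112.5 CPM (-1.10 ± 0.10, adjusted p = 4.62e-09), and XBP1, a factor of the unfolded protein response, fell by 0.99 ± 0.27. Of 29 ATF4 and amino acid stress genes 10 fell (34.5%) and 1 rose (3.45%, and 0 genes with the length offset), with a median of -0.41. SLC7A11, the cystine transporter, had a log2 change of -1.55 ± 0.36. Of 26 heat shock genes 7 fell (26.9%) and 4 rose (15.4%). HSPB1, another small heat shock protein, had 795.5, 653 and 783.9 CPM and then 339, 235.9 and 254.3 CPM (-1.43 ± 0.19). Of 37 lysosome genes 9 rose and 9 fell (24.3% each, near the 22.3% and 22.8% of all genes): CTSL and CTSD, cathepsins, fell by 1.72 ± 0.20 and 1.03 ± 0.12, and NEU1, a sialidase, rose by 0.92 ± 0.13. Of 33 redox genes 10 fell (30.3%) and 9 rose (27.3%); TXNRD2, the mitochondrial thioredoxin reductase, fell from 135.1, 116.2 and 117.8 CPM to 29.64, 20.86 and 18.98 CPM (-2.41 ± 0.37), and SESN3, a stress-induced inhibitor of mTORC1, rose from 0.3907, 0.5427 and 0.4661 CPM to 4.496, 6.137 and 6.505 CPM (3.59 ± 0.41, adjusted p = 2.16e-07).

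Neural and patterning genes showed both directions, but of all genes tested 22.3% rose and 22.8% fell. Shares were near these for neurogenic factors (24.1% rose and 20.7% fell), axon guidance genes (19.2% and 21.2%) and cadherins (28% and 24%). Neuronal and synaptic genes had 24.4% and 12.2%, and HOX genes 0% and 39.4%. Of 29 neurogenic transcription factors 7 rose and 6 fell, with 3 falls without treated replicate 3. NEUROD2 had 4.465, 5.772 and 5.326 CPM and then 0.247, 0.04909 and 0.16 CPM (-5.04 ± 0.71, adjusted p = 2.68e-06), and EBF3 had 69.31, 71.39 and 73.1 CPM and then 185.1, 212.5 and 216.5 CPM (1.52 ± 0.17). Of 41 neuronal and synaptic genes 10 rose and 5 fell, with 6 rises without vehicle replicate 1 or with the length offset. SYN1, a synaptic vesicle protein, rose from 0.8371, 0.9373 and 1.132 CPM to 4.447, 4.467 and 4.586 CPM (2.22 ± 0.30). Of 25 cadherins and protocadherins 7 rose and 6 fell (2 and 7 with the length offset; 4 rose without any 1 of treated replicates 2 or 3 or vehicle replicates 1 or 3), CDH3, placental cadherin, by -2.22 ± 0.34. Of 52 axon guidance genes 10 rose and 11 fell, with 7 falls without vehicle replicate 2. PLXNA2, a semaphorin receptor, fell from 6.809, 8.633 and 7.856 CPM to 0.4447, 0.6873 and 0.4799 CPM (-3.84 ± 0.66). Of 33 HOX genes 13 fell and none rose (9 and none with the length offset, 6 and 2 with the length and GC offset), HOXC8 by -1.59 ± 0.23 and HOXB5 by -1.41 ± 0.25.

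**Figure D4:**
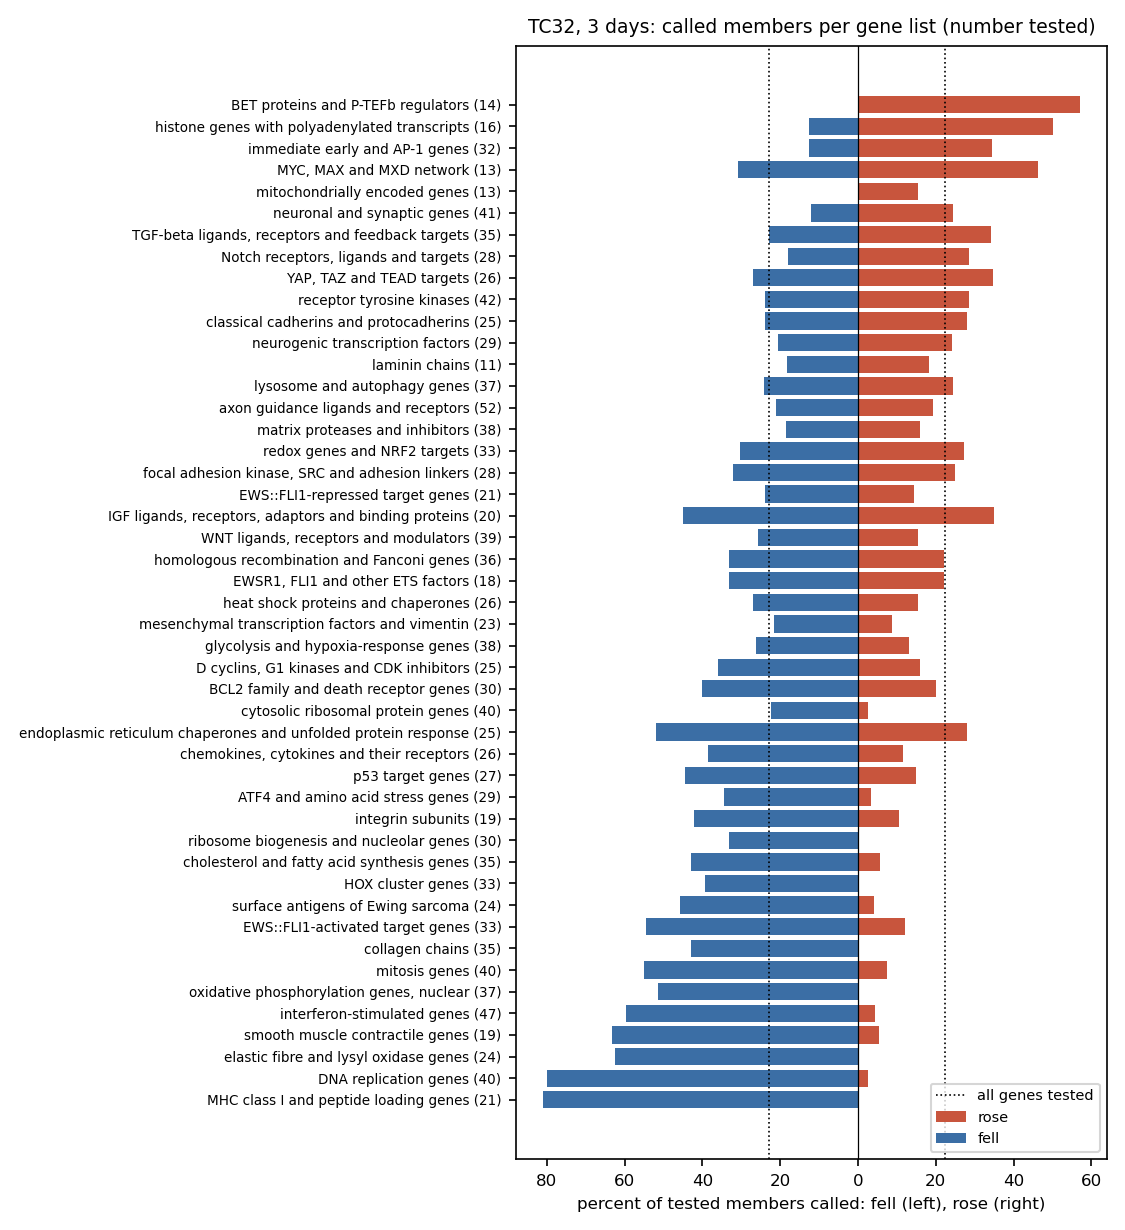
Bars give the percent of tested members of each pathway list with at least 10 tested members that fell (blue, left) or rose (red, right) in TC32, with the number tested in brackets and dotted lines at 22.8% and 22.3% for all genes. The longest blue bars belong to MHC class I and peptide loading (17 of 21) and DNA replication (32 of 40), and the longest red bar to the BET and P-TEFb genes (8 of 14).

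Genes that rose and fell differed in properties that the test did not use. The median gene span was 57.44 kb for genes that rose, 19.86 kb for genes that fell and 30.48 kb for those not called, and the median exon length was 6.916, 3.792 and 4.96 kb; the length contrast between libraries given above moved the same way. Of 12839 expressed protein-coding genes 27% rose and 25.8% fell, against 10.3% and 16.2% of 542 lincRNA genes and 12.3% and 12.1% of 677 antisense genes; the strand setting of the counting is not known, so antisense reads may belong to the partner gene. The share of expressed genes that fell, 24.7% in all, ran from 20% on chromosome 13 to 35% on chromosome 21, where 26.4% rose. TATAAA was found in 10.1% of promoters of expressed genes that fell by at least 2-fold and 6.57% of those that rose by at least 2-fold, against 5.52% of expressed and 12% of all promoters. The repeat GGAAGGAA was found in 3.32% of expressed promoters and in 1 of 28 EWS::FLI1-activated genes.

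The TC32 effect was compared with the mean effect in CHLA10 and A673 at the same dose and time by a contrast in the same fit. It was higher in TC32 for 1990 genes (11.9%) and lower for 1771 (10.6%). These counts rest on single TC32 libraries: 1219 and 1058 were left without treated replicate 2, 1296 and 1086 without treated replicate 3, and 1283 higher without vehicle replicate 1; with the length offset they were 1539 and 1413. For DNA replication, 24 of 40 genes were lower in TC32 than the other lines (17 with the length offset), and the median log2 change was -0.70 in TC32, -0.33 in CHLA10 and -0.01 in A673. For mitosis 14 of 40 were lower, with 9 without treated replicate 1, 7 without vehicle replicate 1 and 9 with the length offset. For MHC class I and peptide loading 11 of 21 were lower, with and without the length offset, and the medians were -1.06, -0.36 and -0.26.

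Among single genes of this contrast, CD99 had a log2 change of -0.71 in TC32 against 0.17 in CHLA10 and 0.04 in A673, a difference of -0.81 ± 0.15 (adjusted p = 0.000306). BAX had -1.12, -0.08 and 0.02 (difference -1.09, adjusted p = 2.85e-06), and 9 of 27 p53 targets were lower in TC32 (5 without vehicle replicate 1), CDKN1A among them, at -0.86 against 1.71 and 0.62 (difference -2.03, adjusted p = 0.00745). CDK6 had -2.80, -0.31 and -0.30 (difference -2.50, adjusted p = 2.74e-06). KIT had -1.16, 0.07 and 0.31 (difference -1.35, adjusted p = 8.64e-07). IGFBP7 had -5.83, -0.13 and 1.30 (difference -6.42, adjusted p = 6.98e-05). HEXIM1 had 0.98, 1.06 and 1.05 and no difference past the threshold (-0.08, adjusted p = 0.759), and MYC had 0.77, 0.20 and 0.45 with a difference of 0.44 (adjusted p = 0.0103, and 0.0554 without vehicle replicate 1). PTK2 had 0.28, 0.10 and -0.10, and the difference of 0.28 did not pass (adjusted p = 0.0617). For CXCL14 the estimates were -7.67, 1.81 and -4.85. The difference of -6.15 ± 2.89 did not pass (adjusted p = 0.135), and its SE is far larger than that of the TC32 change (0.59). A direction of change in CHLA10 is therefore not claimed.

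Interferon-stimulated genes had medians of -1.73, -0.91 and -1.23, with 5 of 47 lower (0 without treated replicate 3) and 3 higher in TC32. ATF4 genes had medians of -0.41 in TC32, -0.32 in CHLA10 and -1.36 in A673, and against the mean of the other lines 7 of 29 were higher in TC32 (2 without treated replicate 2 or vehicle replicate 3, 16 without A673 vehicle replicate 3). Histone genes had medians of 0.26, 0.60 and 0.92, with 6 of 16 lower in TC32 and 3 without vehicle replicate 3. Notch genes were higher for 8 of 28 (3 with the length offset or without treated replicate 3). Of 40 ribosomal protein genes 17 were lower, with 4 under the length offset and 3 to 28 without any 1 library.

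**Figure D5:**
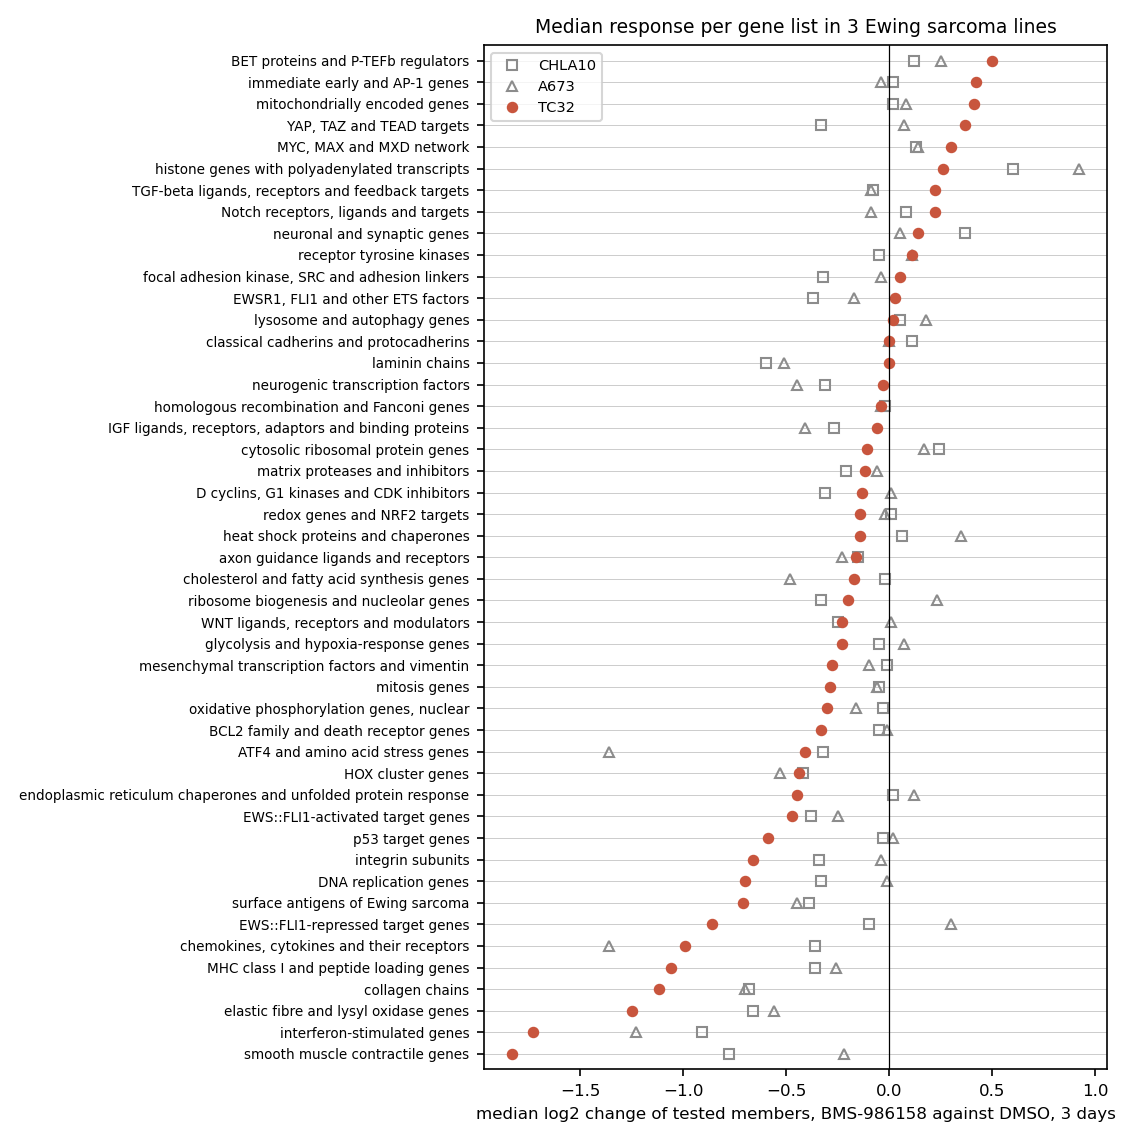
Rows are gene lists with at least 10 tested members, and symbols give the median log2 change of their members at 3 days in TC32 (red circle), CHLA10 (open square) and A673 (open triangle). TC32 lies to the left of both other lines for MHC class I and peptide loading (-1.06 against -0.36 and -0.26) and for DNA replication (-0.70 against -0.33 and -0.01).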

How the data were processed

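The authors deposited 1 table of raw counts per gene for all 30 libraries (poly(A) RNA, paired-end NovaSeq reads), and all of its columns matched a label. Per the submitters' processing notes, FastQC, Trim Galore, STAR, DESeq2 and GRCh38 (hg38) were used; how reads were assigned to genes, with which strand option and gene models, is not given in the sources used here. Genes were tested with edgeR 4.0.16 in R 4.3.3 (quasi-likelihood, robust, TMM scaling, filterByExpr) over all libraries, so that the groups share 1 estimate of the spread, and called at an adjusted p under 0.05. The difference between lines is a contrast of that fit. Values after ± are approximate SEs, worked back from the test as the absolute log2 change over the square root of the F statistic. CPM of single genes use TMM-scaled library sizes. The summed marker levels and the limit of 1 CPM for markers use unscaled library totals. Coordinates are from GENCODE 29 (GRCh38) and promoters from RefSeq (GRCh38.p14), which matched 10950 of the 14079 expressed genes. Library totals are given with the results, and depth limits low genes most.

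The members and gene lists were chosen with earlier results of these data known. Named by rule were 11 fixed genes, the 10 highest and 10 lowest log2 changes, the 5 largest gains and losses in CPM, up to 4 called members per list and the 6 highest and lowest differences between lines. Except for the fixed genes and list members, they were called protein-coding genes with a mean log2 CPM of at least 2 in TC32. Their TC32 groups also had to be separate. Other genes given with values were chosen after their values were seen, among them BRD2, BRD3, CDK9, KIT, NR0B1, NR2F2, E2F1, the MCM genes other than MCM5, PCNA, POLE, BAX, CDKN1A, MCL1, COL6A1, COL6A2, ELN, LTBP1, SRC, TLN2, IGF1R, KLF6, FOS, B2M, TAP1, IFITM3, ISG15, GBP1 and IRF7. A few genes that the rule names are not reported here.

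Whether replicates came from separate cultures is not stated in the labels, and p-values therefore reflect the scatter of these libraries alone, possibly technical. On simulated counts for the TC32 comparison over 16713 genes, 22 of 60 changes of 1.5-fold, 48 of 70 of 2-fold and 65 of 70 of 4-fold were recovered, with 4 false calls. Only these genes were changed, and no shift with length or GC was simulated. In the data 45.1% of genes were called and such a shift was present. The simulation therefore gives neither the recovery nor the number of false calls among the 7545 genes called. Alternatives were DESeq2, limma-voom, other scalings and filters, fewer libraries, a replicate block, each library left out, and offsets for exon length and GC content, the last added after seeing the data.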

Additional observations from a re-analysis of the deposited data

Results flagged for a closer look

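The effect of the inhibitor in TC32 differed from the mean effect in CHLA10 and A673, by a contrast of the edgeR fit at an adjusted p under 0.05, with 1990 genes higher in TC32 and 1771 lower. The genes below were picked as the extremes of that contrast among called protein-coding genes. A mean log2 CPM of at least 2 and separate groups were required in the TC32 libraries only. No level was required in CHLA10 or A673, so large differences may rest on low counts there.

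Of the genes lower in TC32, EPS8L2 had a difference of -3.87 (log2 changes of -3.19 in TC32, 0.49 in CHLA10 and 0.88 in A673). ANO9 had a difference of -3.84 (-1.74, 3.03 and 1.18). The difference was -3.79 for TNFAIP6 (-4.09, 0.60 and -1.19) and -3.75 for C1QTNF3 (-3.11, 0.91 and 0.36). FABP3 had -3.61 (-3.89, -0.53 and -0.03). For DIRAS2 it was -3.23 (-3.08, -0.13 and 0.43), and this call was lost without A673 treated replicate 3 (adjusted p = 0.161).

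Of the genes higher in TC32, ENSG00000266302 had a difference of 4.20 (1.13, -2.87 and -3.26), and its TC32 change was no longer called when any 1 TC32 library was left out. ACVRL1, a receptor of BMP9, had 3.61, falling less in TC32 (-1.61) than in CHLA10 (-5.59) and A673 (-4.84). CES4A had 2.74 (1.47, 0.35 and -2.88). A2M, a protease inhibitor, had 2.71 (-0.68, adjusted p = 0.0668 in TC32, -4.33 and -2.47). ASS1, of arginine synthesis, had 2.56 (-2.33, -3.02 and -6.76), and its difference was lost without A673 treated replicate 3 (adjusted p = 0.0742).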

How the results depend on the processing

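Requiring a 2-fold change left 833 rises and 1848 falls in TC32, and 502 higher and 546 lower genes against the other lines; an adjusted p under 0.01 left 997 and 847 of the latter. Leaving out 1 library at a time gave 3080 to 3724 rises and 3165 to 3673 falls in TC32, and 1219 to 2281 higher and 1058 to 1995 lower genes against the other lines, the lowest without TC32 treated replicate 2. Where either fit called the gene, the direction turned for PTK2 (-0.13 with the exon length offset, -0.17 with length and GC) and for EWSR1 (-0.34 and -0.41). Changes of sign with no call in either fit were not counted as turns. FLI1 was among these (-0.09 with the exon length offset). Of the comparisons of named genes with alternatives, 5154 kept the call or stayed uncalled, 4 turned, 235 lost the call and 23 gained it. Rises made up 49.4% of calls as reported, 31.1% with the 2-fold requirement and 44.3 to 52.6% under the other alternatives. Same-numbered libraries had deviation correlations of 0.10, 0.07 and 0.03, so the numbers were not taken as pairs; with a replicate block over the TC32 libraries alone 4108 genes rose and 4343 fell, against 3825 and 4019 without the block. Low genes are limited by depth, and 310 tested genes had no count in TC32.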
